A study of Mus musculus with 4 samples.

Results

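The genes described here are 36 mouse genes of glycolysis and of pyruvate and lactate handling, of 22225 annotated protein-coding genes, and all 36 were found in the annotation by symbol. They were chosen by function: glucose transporters and hexokinases, the enzymes of upper and lower glycolysis, lactate dehydrogenases and monocarboxylate transporters, subunits and kinases of pyruvate dehydrogenase, and the oxygen-responsive regulator Hif1a. Each gene was scored for binding of phosphorylated CREB within 1, 10 and 100 kb of any annotated transcription start site (TSS), by the libraries that held a called peak and by the rank of that peak's score in its library. The libraries come from MC3T3-E1, a mouse pre-osteoblast cell line, so that no other cell source was sampled. Chromatin was precipitated with an antibody to CREB phosphorylated at a single serine, after 1 h in 100 nM forskolin (2 libraries) or after 1 h in the DMSO vehicle alone (2 libraries). Forskolin activates adenylyl cyclase directly and so raises cyclic AMP without a hormone receptor. Libraries of 1 treatment are described as biological replicates. The study also names an input library, not analysed here.

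Glycolysis turns glucose into pyruvate, which either enters mitochondria through the pyruvate dehydrogenase complex or is reduced to lactate and exported. Osteoblasts are known for running glycolysis to lactate even with oxygen present, and parathyroid hormone, which raises cyclic AMP in these cells, is known to increase lactate output from bone. CREB binds the cyclic AMP response element (CRE) and is phosphorylated by protein kinase A. Ldha, which makes the lactate dehydrogenase subunit favouring lactate, is a classical cyclic AMP-responsive gene in rat cells.

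The sequences under the peaks carried CRE cores, hypoxia-type cores and, in 1 case, a full CRE. They are printed from mm9 in the direction of transcription because the counts of motifs further on refer to these sites. In the Ldha and Pgk1 stretches, capitals mark a full CRE (TGACGTCA), a hypoxia core (ACGTG, or CACGT on the other strand) or an E-box (CACGTG, which holds the hypoxia core). In all other sequences they mark only a CRE core (TGACG, or CGTCA on the other strand) or an AP-1 site (TGAGTCA, or TGACTCA on the other strand), and the hypoxia cores that overlap a CRE core at Hk2, Pdk4 and the Pfkfb4 region are left partly in lower case. The Ldha stretch is chr7:54101106-54101189 on the plus strand. The CRE core windows are chr10:61803094-61803122 for Hk1, chr6:82724482-82724510 for Hk2, chr2:11423707-11423735 for Pfkfb3, chr6:125115668-125115696 for Gapdh, chr6:5446560-5446588 for Pdk4, chrX:156576347-156576375 for Pdha1 and chr14:9005494-9005522 for Pdhb, all on the minus strand, and chr3:104442004-104442032 on the plus strand for Slc16a1. The Pgk1 stretch is chrX:103382277-103382324 on the plus strand. The windows from regions found with forskolin alone are chr6:125111406-125111434 on the minus strand near Gapdh and chr9:108889308-108889351 on the plus strand near Pfkfb4.
Ldha: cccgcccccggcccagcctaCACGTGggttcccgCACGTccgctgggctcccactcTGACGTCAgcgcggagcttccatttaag
Hk1: ggagggagcggcCGTCAttctcctgctct
Hk2: tgagcacatccaCGTCActgtccggggcg
Pfkfb3: ccgccccgaggcTGACGcgccgcgctacc
Gapdh: aggcggggcgcgCGTCAtcagctcccccc
Slc16a1: ggtcaggctctgTGACGagatacttgcgt
Pdk4: caagggggcccaCGTCAtcccggatgcct
Pdha1: ccgtcgcgactcCGTCActgcgttttggg
Pdhb: tactattggctgCGTCAgacgggctctgc
Pgk1: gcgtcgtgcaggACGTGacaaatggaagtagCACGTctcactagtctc
Gapdh, forskolin-only region: ttcgtgCGTCAcacagTGACTCAgtgctt
Pfkfb4, forskolin-only region: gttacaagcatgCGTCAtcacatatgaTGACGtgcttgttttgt

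The forskolin lists held 25566 and 19371 peaks and the vehicle lists 14686 and 10180. All peaks of 1 list shared a width, between 301 and 311 bp. Merging peaks that shared at least 1 bp gave 28335 regions, of which 8930 were called in all 4 libraries, 5187 in both forskolin and neither vehicle library (forskolin-only) and 125 in both vehicle and neither forskolin library (vehicle-only). The lists give no read totals. Within rounding, nearly all scores under 50 were multiples of a fixed step, with shares of 100% and 100% in the forskolin lists and 99.97% and 99.93% in the vehicle lists. If a step is the worth of 1 tag, which no source states, the depth relative to forskolin replicate 1 was 0.347 in forskolin replicate 2, and 1.03 and 1.06 in the vehicle libraries. Scores were used only as percentiles within a list, where 100 is the highest score. Percentiles in lists of unequal length do not measure a change in the amount of binding. All 8 osteoblast marker genes listed had some region within 10 kb. So did 1 of 5 adipocyte markers, 3 of 5 chondrocyte markers, 1 of 5 muscle markers and 2 of 5 markers of blood cells or osteoclasts. The share of all protein-coding genes with some region there was 55.2%. A peak list does not measure expression, so these counts do not test the identity of the cells.

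Binding at the promoters of these genes was mostly present in all 4 libraries. A region called in all 4 libraries lay within 1 kb of a TSS of 19 of the 36 genes (52.8%), and such regions were found near 30.4% of all protein-coding genes. Within 10 kb the count was 24 genes (66.7%), with 37.5% of all genes, and within 100 kb it was 33, with 67.1%. With only the top 50% of each list, the counts were 11 genes within 1 kb and 15 within 10 kb. The median percentiles of the 19 promoter regions were 76.7 and 76.3 with forskolin and 74.3 and 64.7 with vehicle. Those of all 5984 promoter regions of all libraries were close to these, at 78.8 and 73.1 with forskolin and 75.4 and 64.7 with vehicle. Any region at all was found within 1, 10 and 100 kb of 26, 32 and 35 genes, beside 44.5%, 55.2% and 79.5% of all genes. No region lay within 10 kb of Slc2a4, Hk3, Ldhb or Slc16a3, and none within 100 kb of Ldhb.

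Regions called in both forskolin libraries and in neither vehicle library were counted beside the share of all genes. Within 1 kb there was 1 gene (2.78%), Hif1a, beside 3.11% of all genes, which is near that share. Within 10 kb there were 5 genes (13.9%), Slc2a3, Pfkfb4, Gapdh, Ldha and Hif1a, beside 8.88% of all genes. That count was 2 with lists of equal length (Pfkfb4 and Gapdh) and 4 with the top 50% of each list (Pfkfb4, Aldoa, Gapdh and Pdk3). It was 10 and 8 with forskolin replicate 1 or 2 left out, and 9 with vehicle replicate 1 left out. Shares of all genes were not counted at these settings. In the full lists, the promoter regions of Aldoa and Pdk3 were called in all 4 libraries. Their vehicle percentiles, 37.8 and 39.0 for Aldoa and 41.6 and 26.9 for Pdk3, fall below the cut at the top 50%. The share was 5 of 32 genes that had any region within 10 kb, beside 16.1% of all genes with any region there, and a region called in every library was there for 24 of those 32, beside 67.9%. Within 100 kb there were 18 genes (50%), beside 39.7%, and 8 with lists of equal length. None of the 36 genes had peaks of both forskolin libraries within 10 kb and no vehicle peak at all there, a pattern held by 3.74% of all genes. Of the 36, 26 had peaks of all 4 libraries within 10 kb, beside 38.7% of all genes. Slc2a1, Pgam2 and Pdk1 had peaks of both forskolin libraries and 1 vehicle library there, beside 6.03%. Pfkp and Eno3 had a peak of 1 forskolin library only, beside 4.14%. Eno1 had 1 of each treatment, a pattern not counted over all genes.

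**Figure D1:**
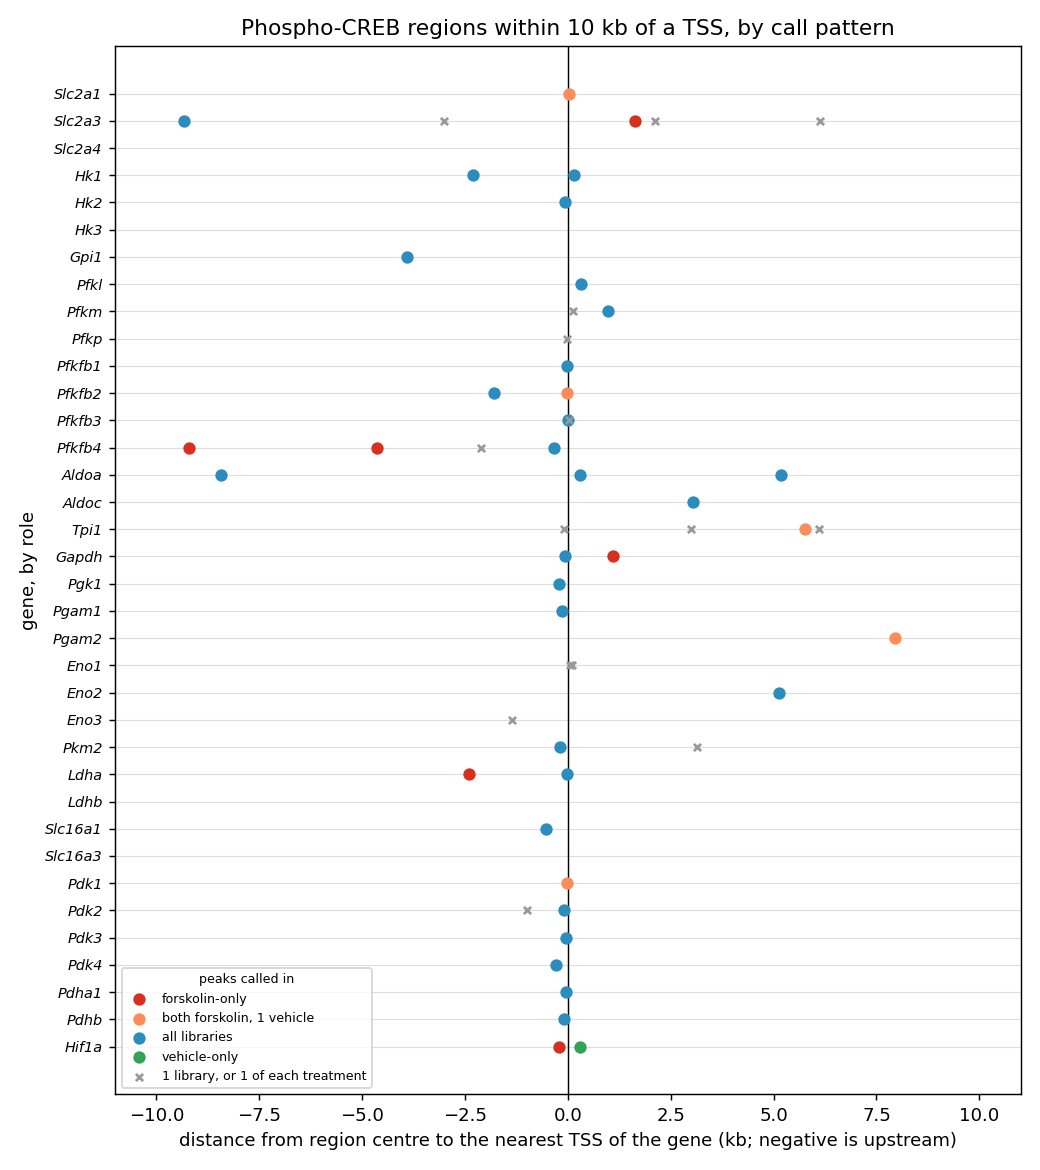
Regions within 10 kb of the 36 genes, by distance in kb from the nearest annotated TSS of the gene (negative is upstream) and coloured by the libraries that called them. Regions of all libraries gather close to the TSS, and the forskolin-only regions are near Slc2a3, Pfkfb4, Gapdh, Ldha and Hif1a.

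The number of genes with a peak differed little between treatments. Within 1 kb of a TSS, 24 and 24 of the 36 genes had a peak in the forskolin libraries, and 24 and 21 in the vehicle libraries, beside 43.3% and 39.2% of all genes with forskolin and 38.6% and 32.4% with vehicle. Within 10 kb the counts were 30 and 31 with forskolin, and 30 and 26 with vehicle, beside 54.2% and 49.2% of all genes with forskolin and 46.7% and 39.7% with vehicle. The means within 10 kb were 30.5 ± 0.707 with forskolin and 28 ± 2.83 with vehicle (SD, n = 2 each), and the difference of 2.5 genes did not pass (two-sided exact permutation p = 0.667). With lists cut to equal length the difference turned to -5.5 genes (exact permutation p = 0.333). Shares of all genes were not counted with equal lists, so whether this reversal is particular to the 36 genes is not known. The differences of 1.5 genes within 1 kb (exact permutation p = 1) and 1 gene within 100 kb (exact permutation p = 0.667) did not pass either. With 2 libraries against 2 the smallest p this test can give is 0.333, so no difference of this kind could pass 0.05. The p measures the spread between these libraries only.

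**Figure D2:**
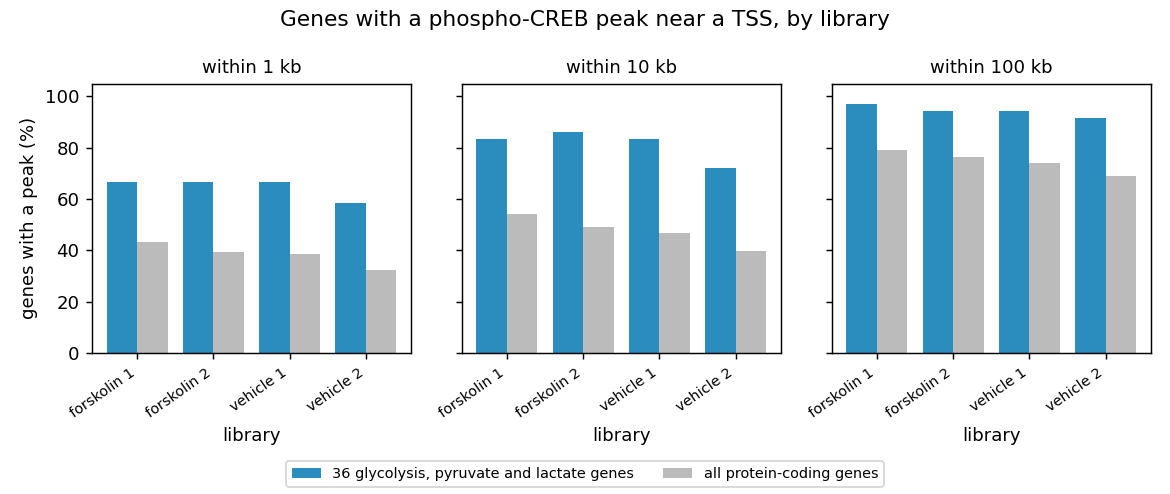
Share in percent of the 36 genes and of all protein-coding genes with a peak within 1, 10 and 100 kb of a TSS, for each library. Within 10 kb the bars of the 36 genes stand at 83.3% and 86.1% with forskolin and at 83.3% and 72.2% with vehicle, each above the bar of all genes.

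Among the transporters and hexokinases, the promoters of Hk1 and Hk2 carried peaks in all 4 libraries and that of Slc2a1 in 3. Slc2a1 encodes the glucose transporter that serves basal uptake in many cells. Its single region within 10 kb, chr4:118781105-118781592 in a 5′ UTR exon at 32 bp, stood at percentiles 39.4 and 5.3 in the forskolin lists and 55.0 in vehicle replicate 1, with no peak in vehicle replicate 2. Slc2a3 encodes a high-affinity glucose transporter best known from neurons. A forskolin-only region, chr6:122681407-122681729, lay in a coding exon 1626 bp from an internal TSS, with percentiles of 50.7 and 17.1. A region of all libraries 9335 bp upstream, nearer to Foxj2, stood at 97.0 and 98.0 with forskolin and 96.3 and 95.5 with vehicle. Hexokinases trap glucose as its phosphate. Hk2, the isoform prominent in insulin-sensitive tissues, had an intergenic region centred 70 bp upstream, chr6:82724357-82724680, with scores of 74.0 and 84.7 with forskolin and 45.2 and 33.9 with vehicle. Its percentiles were 94.5 and 97.3 with forskolin, and 95.0 and 92.6 with vehicle, so it was among the top-scoring peaks of each list and the treatments overlapped. Hk1, the widely expressed isoform, stood at 80.8 and 78.3 with forskolin and 74.3 and 61.5 with vehicle in a region at 145 bp, chr10:61802961-61803330.

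In upper glycolysis, Gpi1, the phosphoglucose isomerase, had its region 3903 bp upstream, with percentiles of 85.7 and 85.6 with forskolin and 85.2 and 80.8 with vehicle. Phosphofructokinase, the committing step, has liver (Pfkl), muscle (Pfkm) and platelet (Pfkp) forms. Pfkl had 49.9 and 44.1 with forskolin and 39.8 and 10.9 with vehicle, in an intronic region at 311 bp. Pfkm had 56.5 and 22.2 with forskolin and 63.5 and 48.7 with vehicle in a region at 981 bp whose nearest TSS is that of Senp1. A Pfkm region closer to a TSS of the gene, at 120 bp in a 5′ UTR exon, was called in replicate 1 of each treatment only. It stood at 28 with forskolin and 19.3 with vehicle. Pfkp had a peak in forskolin replicate 1 alone, 28 bp upstream, at percentile 9.7. Pfkl, and Pfkm by its region nearer to Senp1, thus had a peak within 1 kb in all 4 libraries and Pfkp in 1. No form had a forskolin-only region within 10 kb.

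The Pfkfb genes make and break the sugar bisphosphate that activates phosphofructokinase. Pfkfb3, the inducible form with high kinase activity, had a region on its TSS, chr2:11423497-11423891, with 64.4 and 64.3 with forskolin and 52.5 and 55.1 with vehicle. Pfkfb1 had 45.5 and 50.5 with forskolin and 26.6 and 0.8 with vehicle, and the centre of its region lay in a 5′ UTR exon of Apex2. Pfkfb2 had 45.5 and 12.4 with forskolin and 8.7 in vehicle replicate 2, with no peak in vehicle replicate 1, in a region 15 bp upstream. Pfkfb4, known from testis and as a hypoxia-responsive gene, was the gene of this family with forskolin-only regions within 10 kb. Its promoter region 341 bp upstream, chr9:108893407-108893806, was called in all libraries, at 48.1 and 36.4 with forskolin and 12.1 and 10.9 with vehicle. A forskolin-only region 4634 bp upstream, chr9:108889138-108889489, intergenic and nearer to Ucn2, had scores of 30.3 and 17.9 and percentiles of 79.0 and 62.4. A further one 9219 bp upstream, chr9:108884567-108884889 in a coding exon of Col7a1, had percentiles of 61.9 and 71.8, and its nearest TSS was that of Col7a1.

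Aldolase splits the hexose bisphosphate. Aldoa, the widespread form, had an intronic region at 297 bp, chr7:133943092-133943414, at 69.3 and 65.9 with forskolin and 37.8 and 39.0 with vehicle. A second region of all libraries, intergenic beyond the 3′ end of Aldoa, 5189 bp from an internal TSS and nearer to Ppp4c, stood at 96.0 and 93.9 with forskolin and 95.1 and 89.4 with vehicle. Aldoc, the brain form, had no region of all libraries within 1 kb, and the one at 3032 bp was nearer to Pigs. Tpi1, the triose phosphate isomerase, had a peak of vehicle replicate 1 alone at the promoter, 88 bp upstream at percentile 46.7. A region at 5751 bp stood at 77.9 and 77.4 with forskolin and 77.4 in vehicle replicate 1, and a peak of vehicle replicate 2 lay 22 bp beside it without touching.

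In lower glycolysis, Gapdh carried the highest promoter percentiles. Gapdh oxidises glyceraldehyde phosphate and is often used as a reference gene. Its promoter region, chr6:125115528-125115848 in a 5′ UTR exon 65 bp upstream of the nearest TSS, had scores of 105.5 and 77.1 with forskolin and 53.4 and 50.2 with vehicle. The percentiles were 97.3 and 96.8 with forskolin and 96.4 and 96.8 with vehicle, which overlap. This promoter region has 78 further matches in the genome, of at least 90% identity over at least 50 bp. Reads from copies of the gene may thus have been placed here, and their part was not tested. A forskolin-only region, chr6:125111283-125111603, lay 267 bp beyond the 3′ end of Gapdh, in a 3′ UTR exon of Iffo1 and 1102 bp from an internal Gapdh TSS. Its scores were 103.3 and 56.5 and its percentiles 97.1 and 93.7, so it ranked close to the promoter in the forskolin lists, and both vehicle lists lacked a peak there.

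Pgk1, which makes the first ATP of the pathway, had a region 223 bp upstream, chrX:103382004-103382429, at 73.3 and 55.9 with forskolin and 77.4 and 64.7 with vehicle. Pgam1, the widespread phosphoglycerate mutase, had 85.7 and 84.6 with forskolin and 81.6 and 82.9 with vehicle. Pgam2, its muscle counterpart, had no region within 1 kb, and a region 7945 bp away in an intron of Dbnl stood at 53.8 and 8.5 with forskolin and 33.3 in vehicle replicate 1. The widespread mutase thus had a promoter peak in all libraries, and the muscle form had none. Among the enolases, Eno1, the widespread form, had a peak of forskolin replicate 2 at percentile 22.2 and a separate peak of vehicle replicate 1 at 26.6, 512 bp apart. Eno2, the neuronal form, had a region at 5136 bp, nearer to Atn1, at 57.2 and 17.1 with forskolin and 60.6 and 50.6 with vehicle. Eno3, the muscle form, had a peak of forskolin replicate 2 alone at 55.9, 1358 bp upstream and nearer to Pfn1. Pkm2, the gene for muscle-type pyruvate kinase, had a region 203 bp upstream, chr9:59504002-59504358, at 84.7 and 79.0 with forskolin and 84.9 and 69.1 with vehicle.

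**Figure D3:**
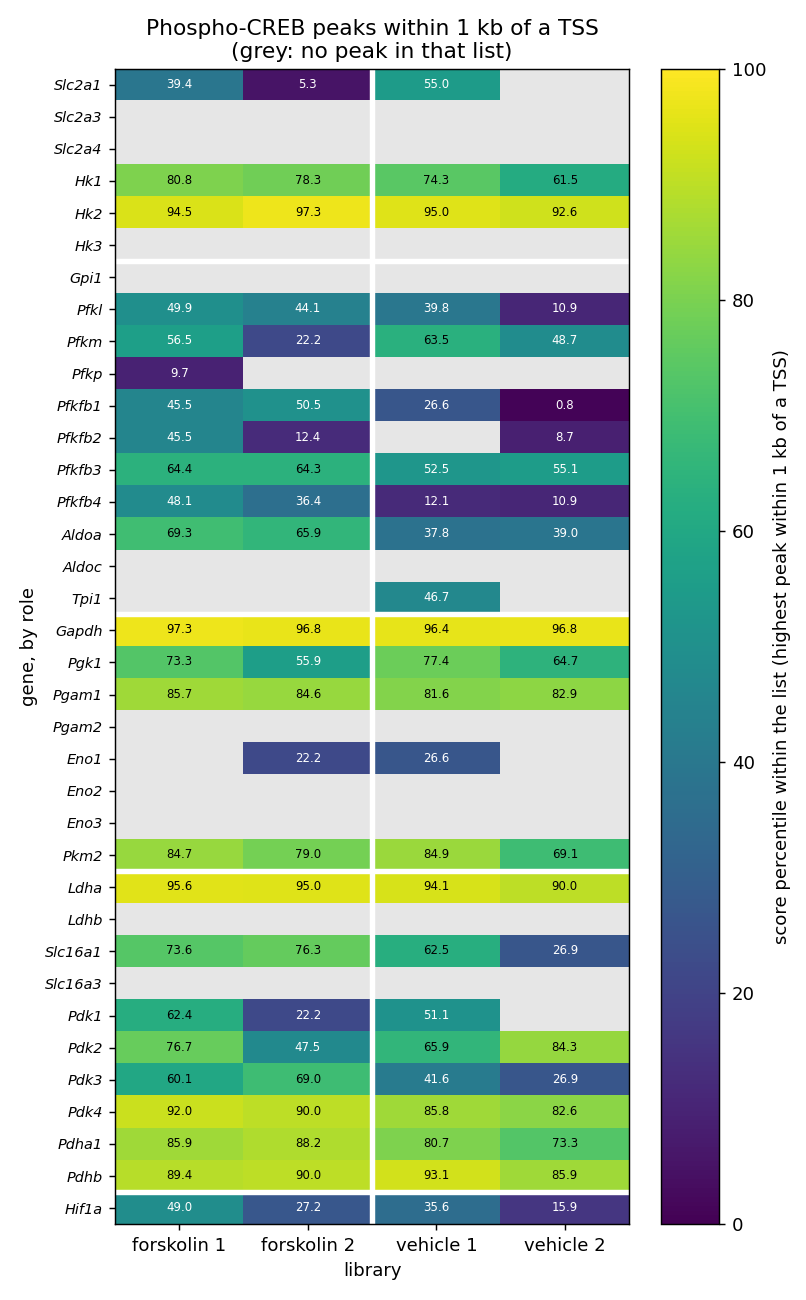
Percentile of the highest peak score within 1 kb of a TSS of each of the 36 genes, with forskolin replicates 1 and 2 left of vehicle replicates 1 and 2, and grey where no peak was called. Gapdh, Hk2 and Ldha were above the 90th percentile in most lists. The forskolin and vehicle values come from different regions at Hif1a and also at Eno1.

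For lactate and pyruvate, Ldha had scores of 83.1 and 62.6 with forskolin and 41.5 and 28.9 with vehicle in a region 19 bp from a TSS, chr7:54101028-54101353, in an intron of a longer transcript. Its percentiles were 95.6 and 95.0 with forskolin and 94.1 and 90.0 with vehicle, so both forskolin values lay above both vehicle values by a small margin. A weak forskolin-only region 2404 bp upstream, chr7:54094244-54094638, stood at 37.2 and 8.5. Ldhb, which makes the other lactate dehydrogenase subunit, had no region within 100 kb. Slc16a1, a proton-linked transporter of lactate and pyruvate, had a region 538 bp upstream, chr3:104441805-104442302, at 73.6 and 76.3 with forskolin and 62.5 and 26.9 with vehicle. Slc16a3, the transporter typical of strongly glycolytic cells, had no region within 10 kb.

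The pyruvate dehydrogenase kinases switch the complex off. Pdk4, the kinase induced by fasting, had a region 293 bp upstream, chr6:5446430-5446774, with scores of 58.2 and 43.4 with forskolin and 25.1 and 20.4 with vehicle. Its percentiles were 92.0 and 90.0 with forskolin and 85.8 and 82.6 with vehicle. It was the highest of the 4 kinases in each forskolin list and in vehicle replicate 1, and Pdk2 was higher in vehicle replicate 2. Pdk3 had 60.1 and 69.0 with forskolin and 41.6 and 26.9 with vehicle, and Pdk2 had 76.7 and 47.5 with forskolin and 65.9 and 84.3 with vehicle. Pdk1, a hypoxia-responsive kinase, had 62.4 and 22.2 with forskolin and 51.1 in vehicle replicate 1, with no peak in vehicle replicate 2. Pdha1 and Pdhb, which encode subunits of the complex's decarboxylase, had a promoter region in all libraries. Pdha1 had 85.9 and 88.2 with forskolin and 80.7 and 73.3 with vehicle, and Pdhb had 89.4 and 90.0 with forskolin and 93.1 and 85.9 with vehicle. The Pdhb region has 1 further match in the genome by the rule used for Gapdh.

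Hif1a encodes the oxygen-regulated subunit of the hypoxia-inducible factor, which drives many glycolytic genes. A forskolin-only region, chr12:75008469-75008863, lay in an intron 225 bp upstream of an internal TSS, with percentiles of 49.0 and 27.2. A vehicle-only region, chr12:75009023-75009346, lay in a 5′ UTR exon 293 bp downstream of that TSS, with percentiles of 35.6 and 15.9. Vehicle-only regions were found within 1 kb of 0.247% of all genes. The regions are 159 bp apart, and peaks joined across up to 500 bp make them a single region of all libraries.

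Of the 27 regions of all libraries within 10 kb of 24 of the genes, 16 (59.3%) had both forskolin percentiles above both vehicle percentiles, as had 44.6% of all 8930 such regions, and 0 had both below, beside 2.51%. The nearest TSS was that of another gene for 7 of the 27. With the top 50% of each list, 9 regions stood higher. The 5 with the largest differences in mean percentile were those of Pfkfb1, Pfkfb4, Pdk3, Slc16a1 and Aldoa, whose values stand above. A percentile depends on the length and make-up of its list, and the forskolin lists were the longer ones. When the 8930 regions were ranked among themselves, a choice made after the data were seen, 3 regions (11.1%) stood higher in both forskolin libraries, beside 18.4% of all, and 8 (29.6%) stood lower, beside 31.3%. The median difference in this rank was -1.46 over the 27 regions and -2.32 over all.

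The 3 that stood higher were at Slc16a1, Aldoa and Pfkfb4. Slc16a1 ranked at 43.3 and 58.5 with forskolin and 43.1 and 22.8 with vehicle. Aldoa ranked at 36.1 and 43.6 with forskolin and 17.3 and 34.4 with vehicle, and Pfkfb4 at 10.4 and 14.9 with forskolin and 3.8 and 8.8 with vehicle. For these 3 genes the 2 treatments did not overlap, but the nearest forskolin and vehicle ranks were close. They were 43.3 and 43.1 at Slc16a1, 36.1 and 34.4 at Aldoa, and 10.4 and 8.8 at Pfkfb4. At each gene the 2 vehicle ranks lay further apart than that. The 8 that stood lower were at Gpi1, Pfkm, Pfkfb2, Gapdh, Pgk1, Eno2, Pkm2 and Pdhb. The Pfkfb2 region ranked here is not the promoter region given above but one 1797 bp from a TSS, in a coding exon of Yod1. The regions of Pfkm, Pfkfb2 and Eno2 were nearest to Senp1, Yod1 and Atn1. Pgk1 ranked at 42.7 and 31.6 with forskolin and 64.0 and 60.9 with vehicle, and Pfkm at 18.1 and 7.6 with forskolin and 44.3 and 43.8 with vehicle. Ldha ranked at 88.7 and 89.8 with forskolin and 90.4 and 88.7 with vehicle, and Hk2 at 86.1 and 94.5 with forskolin and 91.9 and 91.6 with vehicle, so both overlapped.

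**Figure D4:**
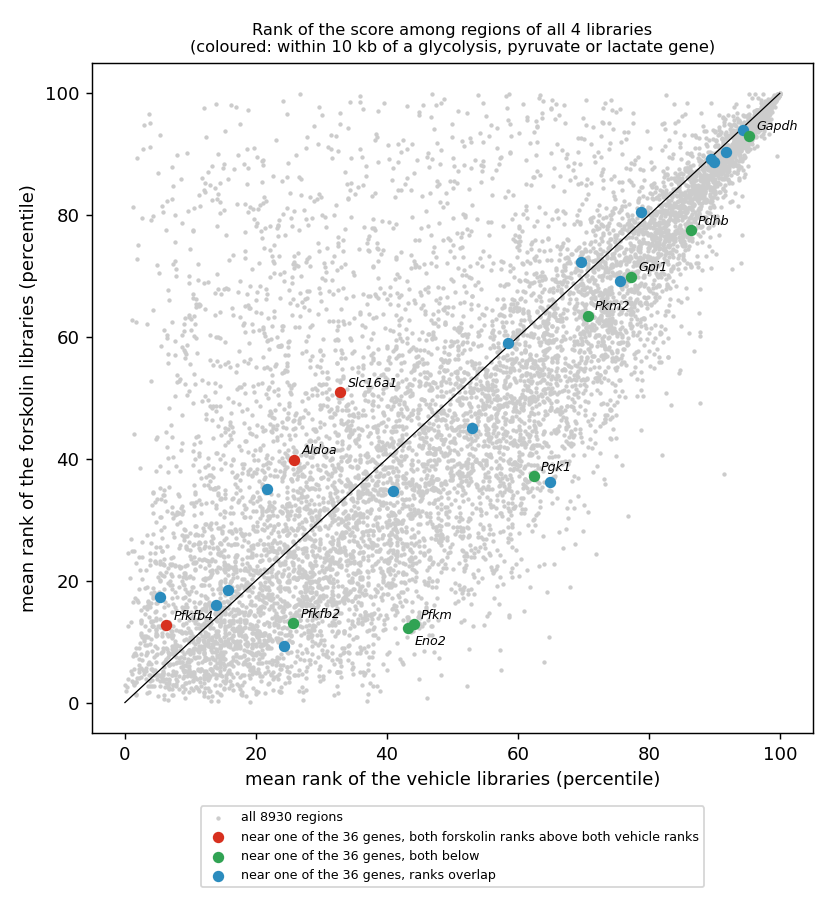
Mean rank in percentiles of each of the 8930 regions called in all libraries, forskolin on the vertical and vehicle on the horizontal axis, with the diagonal marking equal ranks. Of the 27 regions near the 36 genes, red marks the 3 whose forskolin ranks both exceeded both vehicle ranks, green the 8 with both below, and blue the rest, which lie on either side of the diagonal.

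Beyond 10 kb, 28 forskolin-only regions lay within 100 kb of 15 of the genes. The nearest TSS belonged to the gene itself for 5 of them, at Slc2a1, Hk2 and Pdk4, and to another gene for 23. By the lower of the forskolin percentiles, the highest after the Gapdh region was 68176 bp upstream of Slc2a3, chr6:122819652-122820016, at 98.5 and 92.7, and nearer to Necap1. The Pdk4 region at 51514 bp, chr6:5394590-5394933, intergenic and nearest to Pdk4, followed at 82.8 and 78.3. The next, 31462 bp upstream of Pgam2 in an intron of Polm, chr11:5735043-5735354, stood at 81.2 and 65.9. The Pfkfb4 region 4634 bp upstream came next. Hk2, Pdk2 and Pdk4 had 4 forskolin-only regions each within 100 kb. Eno2 and Tpi1 are neighbours and share regions, and the 253 pairs of gene and region within 100 kb held 240 distinct regions.

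The distances decide some of these counts. Just inside 1 kb was a region of 1 forskolin library 990 bp upstream of Pdk2, and just outside was the forskolin-only region 1102 bp from a Gapdh TSS. Just inside 10 kb was the Slc2a3 region 9335 bp upstream, and just outside was a forskolin-only Hk2 region at 10026 bp. Just inside 100 kb was a Pdk2 region at 99733 bp, and just outside an Eno2 region at 100150 bp.

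At the 19 promoter regions of all libraries, motifs were counted within 100 bp of the region's centre on both strands. A CRE core was present in 9 (47.4%), beside 42.7% of all 5984 promoter regions of all libraries, and the full CRE in 1 (5.26%), Ldha, beside 7.32%. The centre of the full CRE of Ldha lay 44 bp upstream of the TSS, next to an E-box and a further hypoxia core, as in the stretch printed above. A hypoxia core was present in 12 (63.2%), beside 26.3%, and the E-box, which contains it, in 3 (15.8%), beside 9.01%. Those 12 were Hk1, Hk2, Pfkl, Pfkm, Pfkfb3, Gapdh, Pgk1, Pgam1, Ldha, Pdk2, Pdk3 and Pdk4. At Hk2 and Pdk4 the hypoxia core overlapped a CRE core as TGACGTG, which 2 (10.5%) of the 19 and 4.21% of all held. With that overlap left out, a hypoxia core remained in 10 (52.6%), beside 23.0%. The median GC content was 63.7% in the 19 windows and 63.2% in all promoter windows. An AP-1 site was found in 0 of the 19, beside 2.36%.

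In the 6 forskolin-only regions within 10 kb, a CRE core was present in 3, an AP-1 site in 2 and the full CRE in 0. Over all forskolin-only regions the shares were 38.6%, 21.8% and 3.59%. The Gapdh region held an AP-1 site and 2 CRE cores, 1 of them beside the AP-1 site in the window printed above, and the Pfkfb4 region 4634 bp upstream held the printed pair of CRE cores. In the 34 forskolin-only regions within 100 kb, 13 (38.2%) held a CRE core and 8 (23.5%) an AP-1 site. A match of letters is a description of the sequence and not of a factor bound there.

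The neighbouring pathways gave mixed counts. Of all genes, 55.2% had some region within 10 kb, 30.4% had one of all libraries within 1 kb and 8.88% had a forskolin-only one within 10 kb. Of 16 tricarboxylic acid cycle genes, 16 had some region within 10 kb, 13 had one of all libraries at the promoter and 0 had a forskolin-only region within 10 kb. Of 7 other genes of pyruvate import and the dehydrogenase complex, 6 had a promoter region of all libraries and 0 a forskolin-only region within 10 kb. Of 8 gluconeogenesis genes, Pck2, G6pc3, Pcx and Slc37a4 had a promoter region of all libraries. Pck1 and G6pc, classical CREB targets in liver, had no region within 10 kb. Fbp2, the muscle fructose bisphosphatase, had a forskolin-only region 3773 bp upstream at 82.6 and 73.1. Of 10 other hypoxia pathway genes, Egln2 and Egln3, oxygen-sensing hydroxylases that mark Hif1a for destruction, had forskolin-only regions. The Egln2 region, 264 bp upstream, stood at 15.0 and 22.2, and the Egln3 region, 19 bp upstream, at 15.0 and 12.4. A second Egln2 region, at 807 bp, was called in both forskolin libraries and, at percentile 15.9, in vehicle replicate 2.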

How the data were processed

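Each library has 1 deposited peak list with a position and a score per peak. The authors' deposited score has no stated scale and was used only as a rank within a list. Bowtie, HOMER and build mm9 are named, with no roles, per the submitters' processing notes. Versions, thresholds and filters were not stated in those notes or the labels. Peaks were called per library.

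Peaks sharing at least 1 bp were merged into regions on NCBIM37, the build also named mm9, with GENCODE M1 genes. A distance is that between the centre of a region and the closest TSS of any transcript. Counts of genes per library were compared with a two-sided exact permutation test, and other counts are set beside the share of all genes or regions. Motifs were searched in 201 bp windows. Regions were matched to the genome with BLAST 2.17.0 for copies. Merging was tested on simulated data. Python 3.11.15 and scipy 1.17.1 were used.

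The genes and related lists were chosen with earlier results of these data known. All 36 genes are accounted for. Named with values are promoter regions of the enzymes, forskolin-only regions within 10 kb, the 5 regions of all libraries with the largest percentile difference, and the 5 forskolin-only regions within 100 kb with the highest lower percentile. The alternatives were a 50% overlap, joining peaks within 500 bp, the top 50% of each list, lists of equal length, edge distances, 1 TSS per gene, leaving out each library and a replicate block. Ranking only among regions of all libraries was added after seeing the data. The replicate numbers are not said to mark a shared day or culture.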

Additional observations from a re-analysis of the deposited data

How the results depend on the processing

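With lists of equal length, cut to the shortest, forskolin-only regions lay within 10 kb of 2 genes (Pfkfb4 and Gapdh) and within 100 kb of 8, and the difference in genes with a peak within 10 kb reversed to -5.5 (exact permutation p = 0.333). With the top 50% of each list, regions of all libraries lay within 1 kb of 11 genes and within 10 kb of 15, and 9 regions stood higher in percentile with forskolin. Ranked only among regions of all libraries, chosen after seeing the data, 3 stood higher. These changes follow a change in list length or rank, and no other cause was tested. Shares of all genes or regions were not counted with equal lists or with the top 50% of each list. Leaving out 1 library gave 6 to 10 genes (10 and 8 when forskolin replicates 1 and 2 were dropped, 9 and 6 for vehicle replicates 1 and 2) with a forskolin-only region within 10 kb, 21 to 27 within 100 kb, 18 to 21 with a region of all libraries within 1 kb, 24 to 28 within 10 kb, 17 to 23 regions higher in percentile, and differences of 0.5 to 4.5 genes. With fewer libraries, a region mostly passes these rules more easily. Without forskolin replicate 2, however, the count of genes with a region of all libraries within 1 kb fell from 19 to 18, as Pfkm dropped out. With the replicate block the difference was 2.5 genes (exact permutation p = 1; paired differences 0 and 5). Over the 8930 regions of all libraries, the difference of replicate 1 minus replicate 2 with forskolin correlated at 0.133 with that difference with vehicle. This is not the agreement between replicates. Without a label of a shared batch, the replicate numbers do not pair the libraries. Among the other 52 values, each count stayed within 1.5 times the reported count, and each difference kept its sign and did not pass. The genes behind a stable count could change. With the top 50% of each list, forskolin-only regions lay within 10 kb of Pfkfb4, Aldoa, Gapdh and Pdk3, so Slc2a3, Ldha and Hif1a dropped out. The Aldoa and Pdk3 regions were of all libraries in the full lists, and only their vehicle peaks fell below the cut.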
